A study of Mus musculus with 6 samples.

Results

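The genes described here are 33 mouse genes for enzymes that make, reduce, salvage or phosphorylate nucleotides, or that supply folate one-carbon units for them. They were taken as a named list of the purine, pyrimidine, deoxynucleotide, salvage and one-carbon steps, matched by symbol, and all 33 were found among the 48526 gene identifiers of the series. Their RNA was measured by RNA sequencing of mouse KP cells (the labels describe these cells no further) in 6 libraries of total RNA. The 3 stable lines N3, N4 and N5, called lines 3, 4 and 5 here, carried pLKO.1-Tet on-shNpm1-3, pLKO.1-Tet on-shNpm1-4 or pLKO.1-Tet on-shNpm1-5, vectors that make a hairpin RNA against Npm1 when doxycycline, a tetracycline antibiotic, is present. All lines had been selected with 2 ug/ml puromycin, so both groups carry the vector. The control group is the 3 lines without doxycycline and the knockdown group the same 3 lines with 100 ng/ml doxycycline. The sources used here do not give the mouse strain, the length of treatment or whether a line is 1 clone.

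Cells make purine nucleotides by building a ring on phosphoribosyl pyrophosphate (PRPP) until inosine monophosphate (IMP) is reached, from which separate branches lead to AMP and to GMP. Pyrimidines are built as a ring first and joined to PRPP later, giving UMP and from it CTP. Ribonucleotide reductase turns ribonucleotides into the deoxynucleotides that DNA synthesis uses, thymidylate synthase adds the methyl group of thymidylate, and salvage enzymes return free bases and nucleosides to the pool. Several of these genes are known to be transcribed most in S phase, the part of the cell cycle in which DNA is copied.

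Between 24391198 and 27341036 reads were counted in genes per library, and 14531 genes had enough of them to be tested. Levels are CPM, counts scaled to a common library size, after TMM scaling, a correction for differences in library composition, and log2 fold changes are of doxycycline against none. Npm1 itself stood at 2002, 1851 and 1924 CPM in untreated lines 3, 4 and 5 and fell to 67.8, 245 and 399.7 CPM, so that 3.39%, 13.2% and 20.8% remained (log2 fold change -3.02, SE 0.49, edgeR adjusted p = 0.011). That adjusted p was 0.0937 without the untreated library of line 3 and 0.177 without both libraries of line 4. Each line had 1 library per condition, so the p-values measure only the spread between lines, and with no library of doxycycline without a hairpin the drug and the knockdown cannot be told apart. In bulk RNA, fewer cells of a type and less RNA per cell cannot be told apart either. Epithelial markers, led by the keratin Krt7, summed to 15463 to 17781 CPM without and 11846 to 16540 CPM with doxycycline over 8 genes. Each of the 8 had a lower mean with doxycycline, Cldn4 for example at 29.7 CPM without and 12.7 CPM with it. At an edgeR adjusted p under 0.05, 1 of the 8 was lower (1.32% of all genes tested) and 0 higher. Nkx2-1, a transcription factor that marks lung epithelium, had 0 counts in all 6 libraries. Of 18 macrophage markers 17 were tested and 13 rose at that threshold (0.963% of all genes tested). Their sums were 64.1 to 65.2 CPM without and 203 to 436 CPM with doxycycline, with no marker at 0. Of 14 T and NK lymphocyte markers 12 fell at that threshold (1.32% of all genes tested). The sums of the 14 went from 20.5 to 28.3 CPM to 2.49 to 5.54 CPM, with Cd3d, Cd8b1 and Nkg7 at 0 counts with doxycycline. The part of these markers in the results was not tested.

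All 33 members passed the filter on low counts, and 3 of them, 9.09%, passed the test at an adjusted p under 0.05, against 2.28% of all genes tested. Adssl1, a synthetase of the AMP branch, and Impdh1, an IMP dehydrogenase of the GMP branch, fell (1.32% of all genes were called lower), and Shmt1, the cytosolic serine hydroxymethyltransferase, rose (0.963% were called higher). The log2 fold change was above 0 in 27 members (81.8%), against 50.4% of all genes tested, and its median was 0.29, against 0.00311 over all genes. The groups of 3 libraries did not overlap for 12 members (36.4%), 10 higher and 2 lower, against 22.6% of all genes (11.3% higher and 11.2% lower). That share was 36% among other genes of nucleotide and folate metabolism, described below. Unadjusted p-values were under 0.05 in 14 members, against 16.3% of all genes. The list is a choice of genes and its counts are a description, not a test of the pathway.

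**Figure D1:**
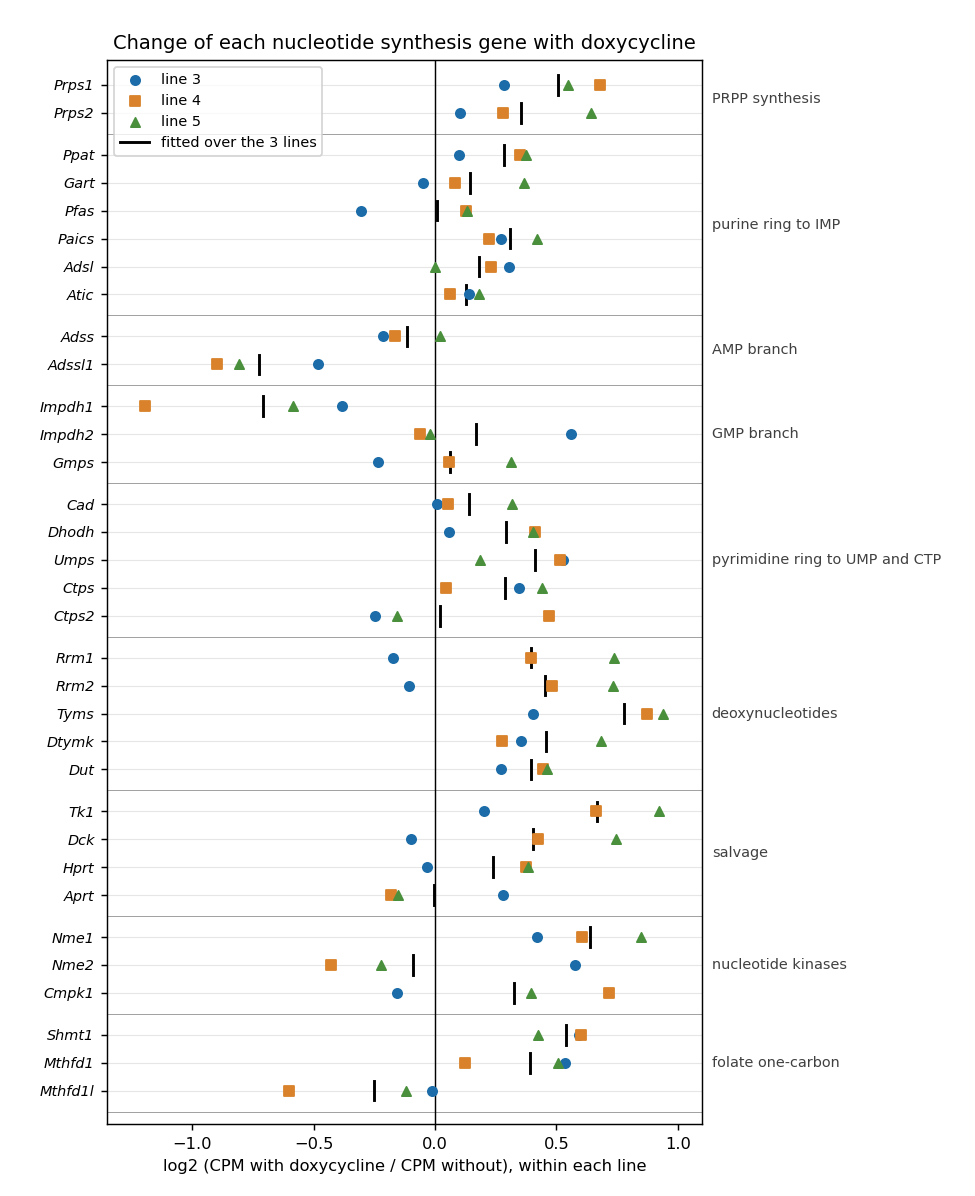
Log2 ratio of CPM with to CPM without doxycycline (x axis) of the 33 members (y axis, ordered by role), with 1 point per stable line and a vertical bar for the edgeR log2 fold change over the 3 lines. Most bars lie to the right of 0 (27 of 33), Adssl1 and Impdh1 lie left of it in each line, and points of line 3 often lie left of those of lines 4 and 5.

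The number of members that passed depended on the libraries used. Without the treated library of line 3, which had the least Npm1, 15 members passed (background 10.4%), 13 higher (4.57%) and 2 lower (5.79%). Among the 13 were Prps1, Prps2, Ppat, Nme1, Cmpk1, Shmt1 and all 7 of Rrm1, Rrm2, Tyms, Dtymk, Dut, Tk1 and Dck. Without the untreated library of line 3, 4 or 5, edgeR called 0 members against backgrounds of 0.597%, 0.783% and 1.22%, with 9 to 11 members at an unadjusted p under 0.05, and no other tool was run on those subsets. Without the treated library of line 4 (background 2.11%) or line 5 (2.07%) Adssl1 alone passed. Without both libraries of line 3 there were 8 calls (4.50%), and without both of line 4 (0.427%) or line 5 (1.34%) there were 0, with 9 and 7 members at an unadjusted p under 0.05. DESeq2 on all 6 libraries called 6 members, Adssl1, Impdh1, Nme1, Prps1, Shmt1 and Tyms, against a background of 4.95%, and limma-voom called the same 3 as edgeR, against 2.33%. With the line as a replicate block, the edgeR test called Adssl1 and Tyms, against 1.67% of all genes. Other settings gave 7 calls with no filter on low counts (3.90%), 3 with RLE scaling (2.28%), 3 with length and GC offsets (2.03%), 2 without the macrophage and lymphocyte genes (1.99%) and 1 among genes with at least 5 CPM (0.481%). At an adjusted p under 0.1 there were 6 (4.08%), and under 0.01 there were 0 (0.833%).

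The level of each enzyme's RNA was compared between genes per kilobase (kb) of the principal annotated transcript. Without doxycycline the purine salvage genes Aprt (531 ± 16.6 CPM per kb, SD, n = 3) and Hprt (501 ± 62.1 CPM per kb) led, and they did not differ from each other beyond their spread. Paics of the purine ring followed at 211 ± 6.71 CPM per kb, then Adss (133 ± 2.79) and the thymidylate kinase gene Dtymk (132 ± 6.13), again within their spread of each other. The lowest were Cad (2.44 ± 0.435 CPM per kb), Nme2 (2.95 ± 1.004) and Pfas (3.15 ± 0.163). Nme2 overlapped with Cad and with Pfas, while every Cad library was below every Pfas one. With doxycycline Hprt (591 ± 43.5 CPM per kb) and Aprt (529.8 ± 93.4) still led. Adssl1 moved from rank 9 to rank 17 of 33 by this measure and Impdh1 from rank 17 to rank 24.

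The 3 members that passed the test are shown with the 100 bases before a RefSeq start site of each, since these members are described most closely. The sequences run 5′ to 3′ along the gene's own strand and come from RefSeq on GRCm38.p6, and capitals mark a CCAAT box (CCAAT, here read on the other strand as ATTGG). Adssl1 lies on chr12:112619947-112620046, plus strand, Impdh1 on chr6:29216365-29216464, minus strand, and Shmt1 on chr11:60811266-60811365, minus strand. RefSeq lists another Impdh1 promoter, at chr6:29212248-29212547, which is not shown.
Adssl1: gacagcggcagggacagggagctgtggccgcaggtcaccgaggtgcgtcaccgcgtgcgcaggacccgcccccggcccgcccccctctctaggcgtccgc
Impdh1: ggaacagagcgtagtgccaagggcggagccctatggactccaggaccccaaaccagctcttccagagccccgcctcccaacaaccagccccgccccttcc
Shmt1: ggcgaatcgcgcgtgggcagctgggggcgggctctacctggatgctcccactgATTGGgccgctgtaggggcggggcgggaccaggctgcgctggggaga
Of these 3 windows only that of Shmt1 holds CCAAT on either strand, and none holds CACGTG.

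The PRPP synthetase genes make the activated ribose that both ring pathways use. Prps1 (mm10 chromosome X, 140456613 to 140476140, plus strand) stood at 97.3, 89.2 and 94.7 CPM in untreated lines 3, 4 and 5 and at 119, 143 and 138 CPM with it. All 3 treated libraries were above all untreated ones, with the smallest difference in line 3, but the log2 fold change of 0.51 (SE 0.12, 95% interval 0.24 to 0.78) did not pass (edgeR adjusted p = 0.0667). Prps2 averaged 32.7 ± 1.804 CPM without and 41.8 ± 7.03 CPM with doxycycline, with overlapping groups (log2 fold change 0.35, SE 0.15, edgeR adjusted p = 0.271). Per kb, Prps1 made up 84.4 ± 1.27% of the sum of the pair without and 85.8 ± 1.31% with doxycycline, so the balance of these isoenzymes overlapped between the groups.

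The 6 genes of the purine ring had log2 fold changes from 0.01 to 0.31, all above 0, and none passed the test (edgeR adjusted p from 0.296 to 0.99; 1 with an unadjusted p under 0.05, 0 by DESeq2 and by limma-voom). Paics, which encodes a bifunctional enzyme of the middle of the pathway, stood at 539, 506 and 523 CPM without and 652, 589.9 and 699 CPM with doxycycline. Its groups did not overlap, and its log2 fold change was 0.31 (SE 0.14, edgeR adjusted p = 0.296). Ppat, which encodes the amidotransferase of the first committed step, was at 34.5, 36.99 and 38.5 CPM without and 36.99, 47.2 and 49.8 CPM with doxycycline. Its log2 fold change was 0.29 (SE 0.14, edgeR adjusted p = 0.358), and the groups overlapped through the treated library of line 3. Ppat and Paics stand head to head on chromosome 5, with start sites 276 bases apart. They share 6.15% and 8.67% of their exonic bases on opposite strands, and reads there cannot be told apart because the strand setting is not known.

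Gart and Pfas encode enzymes of the early ring steps, Adsl and Atic enzymes of the late ones. Gart averaged 83.2 ± 1.131 CPM without and 92.0 ± 14.1 CPM with doxycycline, and 19.7% of its exonic bases are shared with a gene on the other strand. Pfas had nearly equal means, 20.1 ± 1.04 and 20.2 ± 4.04 CPM, with a log2 fold change of 0.01 (95% interval -0.37 to 0.38), an interval that holds differences of either sign. Adsl, which acts both in the ring pathway and in the AMP branch, averaged 129 ± 3.87 CPM without and 146 ± 12.1 CPM with doxycycline, and Atic at 108 ± 11.1 and 118 ± 10.2 CPM. In these 4 genes the groups overlapped.

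In the AMP branch the synthetase step has a pair of isoenzymes, Adss and Adssl1, the latter known as the isoenzyme of muscle. Adssl1 (ENSMUSG00000011148; mm10 chromosome 12, 112620045 to 112641360, plus strand, 13 exons) stood at 84.5, 95.6 and 90.5 CPM in untreated lines 3, 4 and 5 and at 60.6, 51.3 and 51.7 CPM with it. Every treated library was below every untreated one, and each line fell, by 0.48, 0.90 and 0.81 on the log2 scale. The means were 90.2 ± 5.56 and 54.5 ± 5.24 CPM (SD, n = 3 each), so the level fell by 39.6%, and the log2 fold change was -0.73 (SE 0.12, 95% interval -1.003 to -0.45, edgeR adjusted p = 0.0142). Adssl1 had the smallest adjusted p of the members. The call was lost without the untreated library of line 3 (edgeR adjusted p = 0.0684), line 4 (0.121) or line 5 (0.0863), and without both libraries of line 4 (0.237) or line 5 (0.201), with log2 fold changes from -0.77 to -0.64 in these 5 fits.

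Adss, the more abundant of the pair, stood at 378, 367 and 363 CPM without doxycycline and at 326, 328 and 368 CPM with it. The groups overlapped through line 5, and the log2 fold change was -0.12 (SE 0.12, 95% interval -0.39 to 0.16, edgeR adjusted p = 0.706). The log2 ratio of Adss to Adssl1 was 2.16, 1.94 and 2.00 without and 2.43, 2.68 and 2.83 with doxycycline. It was higher in every treated library, by 0.61 on average, with the smallest p that 3 against 3 libraries allow (2-sided exact permutation test, p = 0.1, 0.4 after adjustment over 8 pairs). Per kb, Adss was 72.4 ± 1.55% of the pair's sum without and 80.0 ± 2.28% with doxycycline.

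In the GMP branch, IMP dehydrogenase is the rate-limiting step and is also encoded by a pair of genes. Impdh1 (ENSMUSG00000003500; mm10 chromosome 6, 29200434 to 29216364, minus strand, 15 exons) stood at 64.2, 77.1 and 66.4 CPM without doxycycline and at 49.3, 33.7 and 44.3 CPM with it. The groups did not overlap, and line 4 showed the largest within-line difference (-1.20 on the log2 scale, against -0.38 in line 3 and -0.58 in line 5). Impdh1 fell from 69.2 ± 6.89 to 42.4 ± 7.97 CPM (SD, n = 3 each; log2 fold change -0.71, SE 0.16, 95% interval -1.06 to -0.36, edgeR adjusted p = 0.0491).

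This call for Impdh1 was close to the threshold. The edgeR adjusted p was 0.0927 with the line as a replicate block, 0.0515 with RLE scaling, 0.0528 without the macrophage and lymphocyte genes, 0.0901 among genes with at least 5 CPM, and 0.087 with length and GC offsets, where the log2 fold change was -0.54. It was 0.0741 to 0.399 when a library or a line was left out, except for the treated library of line 3 and for both libraries of line 3, where Impdh1 passed.

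Impdh2 (ENSMUSG00000062867; mm10 chromosome 9, 108560286 to 108565584, plus strand, 14 exons) stood at 116, 134 and 134 CPM without doxycycline and at 172, 128 and 132 CPM with it. Line 3 alone was higher with doxycycline, by 0.56 on the log2 scale, while lines 4 and 5 differed by -0.06 and -0.02. The log2 fold change was 0.17 (SE 0.14, 95% interval -0.15 to 0.49, edgeR adjusted p = 0.621), and without both libraries of line 3 it was -0.03. A processed pseudogene, Impdh2-ps, is 99.7% identical to Impdh2 over 1545 bases, with a mean level of 2.60 CPM, so some reads of Impdh2 may have been left uncounted or placed there.

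The balance of the IMP dehydrogenase genes was compared within each library, where library scaling cancels. The log2 ratio of Impdh1 to Impdh2 was -0.86, -0.79 and -1.01 in untreated lines 3, 4 and 5 and -1.80, -1.92 and -1.58 in the same lines with doxycycline. The treated libraries were all lower, and every line moved the same way, by -0.94, -1.13 and -0.56. The mean went from -0.89 ± 0.11 to -1.77 ± 0.18, a difference of -0.88 (2-sided exact permutation test, p = 0.1, the smallest possible; 0.4 after adjustment over 8 pairs). Per kb of transcript, Impdh1 made up 28.3%, 29.2% and 26.2% of the pair's sum without doxycycline and 17.0%, 15.8% and 19.3% with it. In line 3 the numerator was lower and the denominator higher, whereas in lines 4 and 5 the ratio moved through Impdh1, with Impdh2 differing by -0.06 and -0.02.

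**Figure D2:**
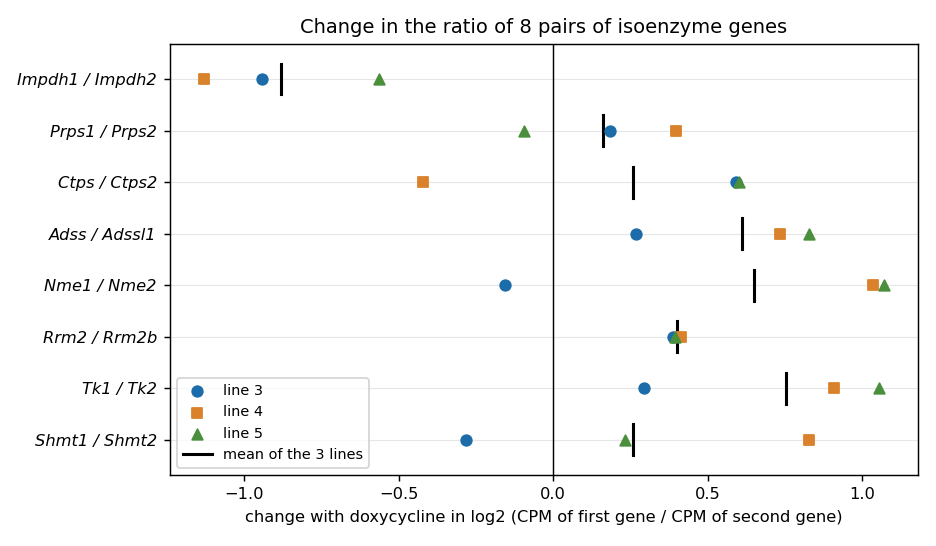
Difference with doxycycline in the log2 ratio of the CPM of the first gene to that of the second (x axis) for 8 pairs of isoenzyme genes (y axis), with 1 point per stable line and a vertical bar for the mean of the 3 lines. The 3 points lie left of 0 for Impdh1 to Impdh2 (mean -0.88), and they nearly coincide for Rrm2 to Rrm2b (0.39, 0.41 and 0.40).

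Gmps, which encodes the synthetase that completes GMP, stood at 120.2, 117 and 119.7 CPM without doxycycline and at 102, 122 and 149 CPM with it. The treated libraries spanned the untreated ones, below them in line 3 and above them in lines 4 and 5, and the log2 fold change was 0.06 (SE 0.15, edgeR adjusted p = 0.886).

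**Figure D3:**
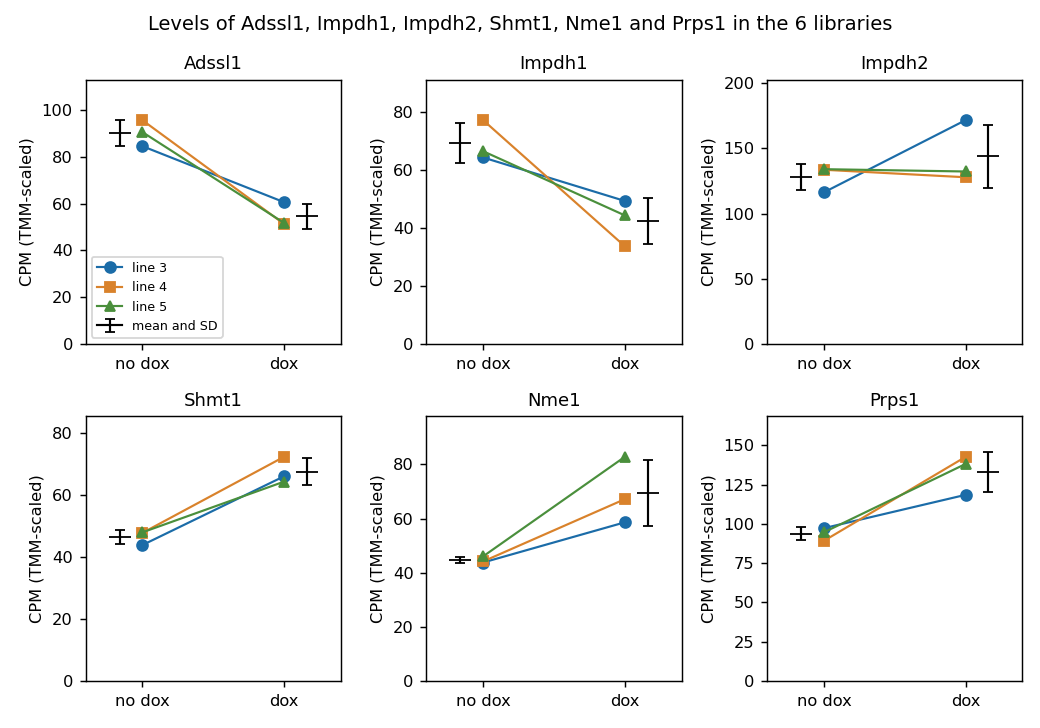
Levels in CPM (y axis, from 0) of Adssl1, Impdh1, Impdh2, Shmt1, Nme1 and Prps1 in the 6 libraries (x axis, without and with doxycycline), with 1 point per library, lines joining the libraries of a stable line, and black marks for the mean with SD. Treated libraries lie below untreated ones for Adssl1 and Impdh1 and above them for Shmt1, Nme1 and Prps1, while those of Impdh2 overlap.

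All 5 genes of the pyrimidine ring pathway and of CTP synthesis had log2 fold changes above 0, with a median of 0.29, and none passed the test (edgeR adjusted p from 0.129 to 0.973; 2 with an unadjusted p under 0.05, and 0 called by DESeq2 and by limma-voom). Umps, whose product makes UMP from orotate, stood at 47.6, 46.2 and 52.6 CPM without and 68.6, 66.1 and 59.8 CPM with doxycycline. Its groups did not overlap, and the log2 fold change was 0.41 (SE 0.12, edgeR adjusted p = 0.129). Dhodh, the mitochondrial dihydroorotate dehydrogenase, also had groups that did not overlap, at 25.7 ± 1.51 CPM without and 31.5 ± 2.66 CPM with doxycycline (log2 fold change 0.29, SE 0.13, edgeR adjusted p = 0.3). Cad, whose product carries the first 3 activities of the pathway, was at 17.4 ± 3.11 CPM without and 19.2 ± 4.42 CPM with it, with a log2 fold change of 0.14 (SE 0.20).

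The CTP synthetase genes Ctps and Ctps2 were at 90.5 ± 4.49 and 27.2 ± 5.01 CPM without doxycycline and at 111 ± 18.5 and 27.6 ± 4.71 CPM with it. Both overlapped between the groups. Ctps2 differed in sign between lines, with within-line differences of -0.25, 0.47 and -0.16 on the log2 scale in lines 3, 4 and 5.

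The deoxynucleotide genes had the largest median log2 fold change of the 9 roles, 0.45, and all 5 were above 0, but none passed the test (3 with an unadjusted p under 0.05, 1 called by DESeq2 and 0 by limma-voom). Tyms, thymidylate synthase, stood at 43.5, 49.3 and 55.6 CPM in untreated lines 3, 4 and 5 and at 57.6, 90.3 and 107 CPM with it. Every treated library was above every untreated one, though line 3 with doxycycline was close to line 5 without it. Its log2 fold change of 0.78 was the largest of the members (SE 0.21, 95% interval 0.32 to 1.24, edgeR adjusted p = 0.0909). With the line as a replicate block Tyms passed (edgeR adjusted p = 0.0492), with a log2 fold change of 0.74. A stretch of the annotated Tyms transcript of 330 to 361 bases has copies of at least 95% identity in 10 other genes, so part of its reads may not be counted.

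Dut, which removes dUTP, stood at 162, 155 and 169.7 CPM without and 196, 211 and 234 CPM with doxycycline. Its groups did not overlap (log2 fold change 0.40, SE 0.12, edgeR adjusted p = 0.144). Dtymk, the thymidylate kinase, was at 129, 128 and 139 CPM without and 166, 155 and 223 CPM with doxycycline, also without overlap (log2 fold change 0.46, SE 0.15, edgeR adjusted p = 0.17).

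Ribonucleotide reductase is built from a large subunit, encoded by Rrm1, and a small subunit, encoded by Rrm2. Rrm1 stood at 131, 168 and 157 CPM without doxycycline and at 116, 221 and 262 CPM with it. Rrm2 stood at 60.1, 81.3 and 82.5 CPM without and at 55.8, 113 and 137 CPM with doxycycline. In both genes line 3 was lower with doxycycline and lines 4 and 5 were higher, so the groups overlapped. The log2 fold changes were 0.39 (SE 0.25) for Rrm1 and 0.45 (SE 0.27) for Rrm2, with edgeR adjusted p of 0.48 and 0.458. Without the treated library of line 3 both passed, Rrm1 with a log2 fold change of 0.67 (edgeR adjusted p = 0.0105) and Rrm2 with 0.75 (0.0112). That fit drops the only treated library that was below its untreated one, so it favours a call. Over all fits with a library or line left out, the log2 fold change ran from 0.15 to 0.67 for Rrm1 and 0.18 to 0.75 for Rrm2.

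The same order of lines was seen in salvage of deoxynucleosides. Tk1, the cytosolic thymidine kinase, stood at 99.0, 124 and 139 CPM without and 114, 197 and 263 CPM with doxycycline. Dck, the deoxycytidine kinase, stood at 19.9, 21.3 and 20.5 CPM without and 18.6, 28.5 and 34.4 CPM with it. Line 5 was highest and line 3 lowest among treated libraries of both genes, and neither passed the test (log2 fold changes 0.67, SE 0.26, and 0.40, SE 0.20; edgeR adjusted p = 0.236 and 0.363).

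Over the whole list, 8 of 33 members (24.2%) were lower in line 3 and higher in lines 4 and 5, against 15.0% of all genes tested. They are Gart, Pfas, Gmps, Rrm1, Rrm2, Dck, Hprt and Cmpk1. The median within-line difference of the members was 0.10 in line 3, 0.28 in line 4 and 0.38 in line 5, with 20, 26 and 25 of 33 members above 0. A list of 14 cell cycle genes, Mki67 and Pcna among them, summed to 1666, 2033 and 2071 CPM without doxycycline and to 1761, 2477 and 2816 CPM with it. Its treated libraries thus had the same order of lines, which its untreated libraries already had. The part of that list in the members' levels was not tested. In that list 0 genes passed (edgeR; 3 with an unadjusted p under 0.05, 0 called by DESeq2 and 0 by limma-voom), 14 of 14 were above 0, and the median was 0.30. Mki67, a marker of proliferating cells, differed by -0.67, 0.78 and 0.81 on the log2 scale in lines 3, 4 and 5. Most of the list did not follow Mki67 in line 3, where 10 of the 14 genes were higher with doxycycline (median 0.08). Only 3 of the 14 (21.4%) were lower in line 3 and higher in lines 4 and 5, against 15.0% of all genes tested.

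**Figure D4:**
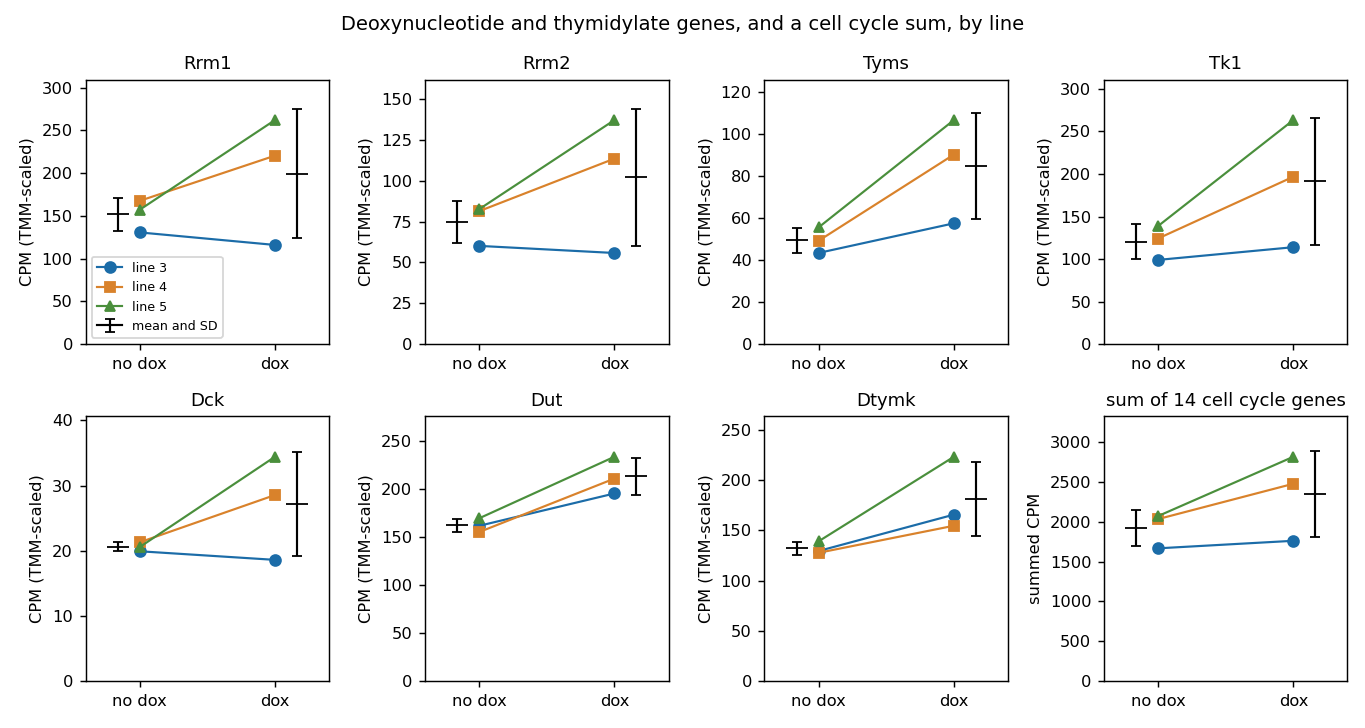
Levels in CPM (y axes, from 0) of Rrm1, Rrm2, Tyms, Tk1, Dck, Dut and Dtymk and the summed level of 14 cell cycle genes, without and with doxycycline (x axis), with points joined per stable line and black marks for the mean with SD. Rrm1, Rrm2 and Dck were lower with doxycycline in line 3 only, and line 5 was the highest treated library in every panel.

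Whether members differed between the lines, apart from doxycycline, was tested with the line terms of a model with both. At an adjusted p under 0.05 the edgeR test called 0 of 33 members and 0% of all 14531 genes, with 2 libraries per line, and no other tool was run for the lines. At an unadjusted p under 0.05 were 5 members, Tk1, Rrm2, Rrm1, Tyms and Cad, against 4.59% of all genes, and the smallest adjusted p of a member was 0.868. With no filter on low counts 3 members passed, Rrm1, Rrm2 and Tk1, against 0.889% of all genes at that setting.

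The purine salvage genes Hprt and Aprt, which return hypoxanthine, guanine and adenine to nucleotides, overlapped between the groups. Hprt stood at 732, 574 and 632 CPM without and 716, 744 and 824 CPM with doxycycline (log2 fold change 0.24, SE 0.15, edgeR adjusted p = 0.478). Aprt stood at 444, 441 and 467 CPM without and 539.6, 389 and 421 CPM with it, higher in line 3 and lower in lines 4 and 5. Its log2 fold change was near 0 (SE 0.15, 95% interval -0.34 to 0.34, edgeR adjusted p = 0.994), and its sign differed between scalings.

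The nucleoside diphosphate kinases of Nme1 and Nme2 make triphosphates. Nme1 (mm10 chromosome 11, 93956979 to 93968521, minus strand) stood at 43.7, 44.1 and 46.0 CPM without doxycycline and at 58.6, 67.2 and 82.8 CPM with it. The treated libraries were all above the untreated ones, with a log2 fold change of 0.64 (SE 0.14, 95% interval 0.32 to 0.96) and an edgeR adjusted p of 0.0508, just outside the threshold. Nme1 passed with RLE scaling, with length and GC offsets, with no filter on low counts and in DESeq2. It did not pass with the line as a replicate block (edgeR adjusted p = 0.0671) or in limma-voom. Nor did it pass among genes with at least 5 CPM or without the macrophage and lymphocyte genes. With a library or line left out it passed only without the treated library, or both libraries, of line 3. Nme2, its neighbour on the same strand, averaged 2.98 ± 1.02 CPM without and 2.80 ± 0.194 CPM with doxycycline (log2 fold change -0.09, SE 0.30). The low level of Nme2 is uncertain, since 48.9% of its exonic bases (12.5% of those of Nme1) are shared with the read-through gene Gm20390, which had 0 counts in all 6 libraries, and 3 processed pseudogenes are 97.2% to 97.8% identical to it. Reads in shared exons or copies may not have been counted for Nme2.

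Cmpk1, which phosphorylates UMP and CMP, was at 146, 111 and 129 CPM without and 131, 182 and 170.0 CPM with doxycycline. Line 3 was lower and lines 4 and 5 higher, and the log2 fold change was 0.32 (SE 0.16, edgeR adjusted p = 0.349).

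Folate carries the one-carbon units that purine and thymidylate synthesis use, and the cytosolic serine hydroxymethyltransferase of Shmt1 takes them from serine. Shmt1 (ENSMUSG00000020534; mm10 chromosome 11, 60788104 to 60811718, minus strand, 12 exons) stood at 43.7, 47.7 and 47.8 CPM in untreated lines 3, 4 and 5 and at 65.9, 72.2 and 64.2 CPM with it. Every treated library was above every untreated one, and the lines rose by 0.59, 0.60 and 0.42 on the log2 scale. The means were 46.4 ± 2.31 and 67.4 ± 4.22 CPM (SD, n = 3 each), with a log2 fold change of 0.54 (SE 0.12, 95% interval 0.28 to 0.80, edgeR adjusted p = 0.0454). The call was lost with the line as a replicate block (0.0842), among genes with at least 5 CPM (0.0788) and without any library or line other than the treated library of line 3 (0.0547 to 0.371), with log2 fold changes from 0.49 to 0.59.

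Mthfd1, the cytosolic enzyme that interconverts folate one-carbon units, stood at 68.5, 82.4 and 82.4 CPM without and 99.1, 89.8 and 117 CPM with doxycycline. Its groups did not overlap (log2 fold change 0.39, SE 0.14, edgeR adjusted p = 0.2). Mthfd1l, which releases formate from mitochondria, was at 71.2, 95.6 and 80.1 CPM without and 70.6, 63.0 and 73.7 CPM with doxycycline, lower in each line but with overlapping groups (log2 fold change -0.25, SE 0.14, edgeR adjusted p = 0.415).

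A list of 54 other genes of nucleotide and folate metabolism, of which 53 were matched and 50 tested, held 1 gene that rose and 0 that fell, 2% of those tested against the same 2.28% of all genes. Over the 50 genes the log2 fold change was above 0 in 28, with a median of 0.13. The groups did not overlap for 18 of the 50 (36%), 10 higher and 8 lower, a share near that of the members. Among those that did not pass, the smallest p-values were those of Ak6 (log2 fold change 0.53, edgeR adjusted p = 0.0992; other genes cover 59.1% of its exonic bases), Aldh1l1 (-0.91, 0.119) and Upp1 (-0.47, 0.133). Next were Itpa (0.41, 0.179), Adk (0.40, 0.187) and Ak4 (-0.51, 0.191).

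Pairs of a member with a gene of that list were also compared as log2 ratios within libraries. Rrm2 to Rrm2b, the small subunit of the reductase outside S phase, differed by 0.39, 0.41 and 0.40 in lines 3, 4 and 5. These were nearly the same in each, although the untreated lines were so far apart that the groups overlapped (2-sided exact permutation test, p = 0.4, 0.457 after adjustment over 8 pairs). The genes behind the ratio did not move alike in the lines. In line 3 both were lower with doxycycline, Rrm2 by -0.11 and Rrm2b by -0.50 on the log2 scale. In lines 4 and 5 both were higher, Rrm2 by 0.48 and 0.73 and Rrm2b by 0.07 and 0.34. Tk1 to the mitochondrial Tk2 differed by 0.29, 0.91 and 1.06 (2-sided exact permutation test, p = 0.2, 0.4 after adjustment). Shmt1 to the mitochondrial Shmt2 overlapped as well, with Shmt1 at 30.6 ± 4.56% of the per kb sum without and 34.6 ± 6.70% with doxycycline.

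The 250 bases before each RefSeq start site were searched for known motifs on both strands, among 32851 promoters of which 37 belong to 31 members (Pfas and Dhodh had no entry). The E-box CACGTG, the site that MYC and related factors are known to bind, was in 7 of the 37 (18.9%), against 6.02% of all. It lay in promoters of Atic, Dtymk, Impdh2, Nme1, Paics and Tyms, and none of the 3 members that passed the test had it. The windows around it are shown, 1 per gene, with the E-box in capitals, and these members were picked for holding it. RefSeq lists another Nme1 promoter with an E-box, at chr11:93967976-93968275, whose match is not shown. The E2F-type letters TTTCCCGC, TTTCGCGC, TTTGCCGC or TTTGGCGC were in 1 of 37 (2.70%, Ppat), against 1.86% of all, and CCAAT in 10 of 37 (27.0%), against 33.8%.
Atic, chr1:71557122-71557155, plus strand: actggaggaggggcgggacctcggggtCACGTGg
Dtymk, chr1:93802050-93802109, minus strand: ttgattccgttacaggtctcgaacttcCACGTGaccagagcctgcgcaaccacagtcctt
Impdh2, chr9:108560314-108560343, plus strand: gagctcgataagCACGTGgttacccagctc
Nme1, chr11:93968273-93968302, minus strand: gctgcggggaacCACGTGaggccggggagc
Paics, chr5:76951087-76951116, plus strand: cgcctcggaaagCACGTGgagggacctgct
Tyms, chr5:30073654-30073713, minus strand: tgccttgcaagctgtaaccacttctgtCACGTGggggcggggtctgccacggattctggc
The motif is a match of letters and not a measured site. The windows of Impdh2, Nme1 and Paics lie wholly in annotated exons, of Impdh2, of Nme1 with Gm20390 and of Ppat, and are shown at 30 bases. The last 6 bases of the Atic window, which take in most of its E-box, lie in an annotated exon of Atic.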

How the data were processed

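Total RNA of mouse KP cells was sequenced in 6 libraries, 3 without and 3 with doxycycline. The authors deposited unnormalized read counts per gene, as whole numbers. Per the submitters' processing notes the reads were handled with STAR, HTSeq, Picard, CASAVA and bedtools, DESeq2 and R 3.3.0 were used, and the genome build was mm10. For the annotation release, strand setting and other versions nothing is stated in the sources used here. The 5 rows that name no gene held 43.7% to 47.7% of reads and were left out. A floor of 3 counts is 0.0991 to 0.137 CPM, and floors cover counting error only.

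Tests used edgeR 4.0.16 in R 4.3.3 (low counts filtered with filterByExpr, TMM scaling, quasi-likelihood F test, Benjamini-Hochberg adjustment over 14531 genes). The main test had the group as its only term, and the line entered only in the replicate block. The SE of a log2 fold change is its size over the root of F. Within-library ratios used a 2-sided exact permutation test. Symbols, coordinates, principal transcript lengths and overlaps came from GENCODE M21 (48144 identifiers matched), copies from blastn 2.17.0 (at least 95% identity over 300 bases) and promoters from RefSeq. Replicates were not duplicates (chi-square per degree of freedom 7.86 to 108).

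The members and lists were chosen with earlier results of these data known. The rule for named genes took all 33 members, other pathway genes that passed, and the 6 with the smallest p that did not. Of the genes this rule took, 1 is not reported here. Line numbers pair the libraries, since the same number means the same stable line. As a check, the correlation over genes of deviations from group means was 0.0434 in line 3, 0.0962 in line 4 and 0.0274 in line 5, against -0.112 to 0.0713 for libraries of different lines. The value of 0.0713 was that of treated line 3 with untreated line 5, so the check did not set same lines apart from different ones. Tested on simulated data of 14531 genes for doxycycline against none, edgeR found 20.9% of 67 genes with 1.5-fold changes, 58.2% of 67 with 2-fold and 92.4% of 66 with 4-fold changes, and made 12 false calls. Alternatives were RLE scaling, no filter, at least 5 CPM, the replicate block, each library or line left out, DESeq2 1.42.0, limma-voom (limma 3.58.1), length and GC offsets (mgcv 1.9.3), a fit without macrophage and lymphocyte genes, other thresholds, and 0.5 added to each CPM in ratios.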

Additional observations from a re-analysis of the deposited data

Results flagged for a closer look

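The lines differed in sign, by more than 0.2 on the log2 scale each way, in 3 members, and the difference between lines was not tested because each line has 1 library per condition. Gmps, the GMP synthetase gene, differed with doxycycline by -0.2358 in line 3, 0.0589 in line 4 and 0.3131 in line 5. Ctps2, a CTP synthetase gene, differed by -0.2484, 0.4698 and -0.158. Nme2, a nucleoside diphosphate kinase gene with a mean of under 3.00 CPM in each group, differed by 0.5777, -0.4303 and -0.224.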

How the results depend on the processing

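Of the 33 members, edgeR called 3 on all libraries, 7 with no filter on low counts, 1 among genes with at least 5 CPM, 6 at an adjusted p under 0.1 and 0 under 0.01 (14 at an unadjusted p under 0.05). DESeq2 called 6, the replicate block 2, the fit without macrophage and lymphocyte genes 2, and RLE scaling, limma-voom and the offsets 3 each. With 1 library left out the count was 0 to 15, and without line 3, 4 or 5 it was 8, 0 and 0. The other pathway genes gave 1 call, also with the replicate block, 5 with no filter, 3 with DESeq2 and 0 with at least 5 CPM (11 at an unadjusted p under 0.05). They gave 0 to 5 with 1 library left out and 0 without line 4. The lines gave 0 calls among members, and 3 with no filter, where 0.889% of all genes passed. Npm1 had a log2 fold change of -3.32 with the replicate block, -3.07 without line 4 and -3.62 to -2.57 with 1 library left out. The replicate block changed the calls of Impdh1, Shmt1 and Tyms and of no other member, and paired over 3 lines an exact test of a ratio cannot go below p = 0.25. The difference in the log2 ratio of Impdh1 to Impdh2 was -1.04 to -0.75 with a library or line left out, -0.69 with the offsets and -0.87 with 0.5 added. On all libraries 1 of the other 7 ratios had groups that did not overlap, against 1 to 4 with 1 library left out and 5, 2 and 3 without line 3, 4 or 5. Members near 0 differed in sign between settings. Pfas was at -0.00768 with no filter, -0.0124 with the replicate block, -0.00143 with limma-voom, -0.0655 without line 4 and -0.0660 without line 5. Aprt was at 0.00263 with RLE scaling, 0.00260 with DESeq2, 0.00253 with at least 5 CPM, 0.0730 without line 4 and 0.0617 without line 5. Impdh2 was at -0.0349 without line 3, Gmps at -0.0893 without line 5, Ctps2 at -0.21 and Nme2 at 0.0997 without line 4, and the ratio of Shmt1 to Shmt2 at -0.0249 without line 4. With 1 library left out the log2 fold change ran from -0.11 to 0.17 for Pfas, -0.15 to 0.0916 for Aprt, -0.0875 to 0.19 for Gmps, -0.11 to 0.18 for Ctps2 and -0.35 to 0.0654 for Nme2. The cause of these differences was not tested, but fits that leave out a library or line hold fewer samples. Depth limits Nme2 most, the member with the lowest mean CPM.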
